A study of Mus musculus with 4 samples.

Results

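The genes described here are 10 genes of the bone morphogenetic protein (BMP) pathway, read by 23 probe sets. They are the ligand genes Bmp2, Bmp4 and Bmp7, the receptor genes Bmpr1a, Bmpr1b and Bmpr2, the antagonist genes Grem1 and Nog, and the target genes Id1 and Id4. Members were all probe sets that the platform annotation assigns to exactly 1 gene with one of these symbols, out of 45037 non-control probe sets and 18193 named genes on the array. RNA came from basal cells sorted fresh from mouse mammary gland, a population that per the labels holds stem cells, myoepithelial cells and their progenitors. The diet was soy protein isolate (SPI) for 2 arrays and casein (CAS), the control, for the other 2. Mice of both diets carried the MMTV-Wnt1 transgene, in which a viral promoter active in mammary epithelium drives the Wnt1 ligand, on a mixed B66SJL/HEV/J background. Age, and whether each array holds 1 animal or a pool, are not stated in the labels. Since separate animals are not named either, the p-values rest on the spread between these arrays alone, and that spread may be technical.

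BMPs are secreted dimers of the TGF-beta superfamily that bind a complex of type I and type II serine/threonine kinase receptors. The active complex phosphorylates Smad1, Smad5 and Smad9, which join Smad4 and raise transcription of target genes such as those of the ID family, inhibitors of basic helix-loop-helix factors. Secreted antagonists hold the ligands away from their receptors. In the mouse mammary gland BMP signalling takes part in outgrowth of the early bud, and Id4 is known as a gene of basal cells that ductal growth requires.

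The deposited values are log2 expression values centred on the median of the 4 arrays of each probe set, so a value is a distance from that median and not a level. The step size of the digits still shows a rough range of the log2 level before centring, here called the level class. It is 8 to 16, 4 to 8 or 2 to 4, and probe sets whose digits fit none of these form the lowest class, whatever their level. Of the 23 member probe sets 11 lay in the class 8 to 16, 9 in 4 to 8 and 3 in 2 to 4. The class alone does not establish expression, since 12 of 43 olfactory receptor probe sets also reached 4 or above, against 84 of 96 ribosomal protein probe sets. The defining basal genes Krt5, Krt14 and Trp63 each had at least 1 probe set in the class 8 to 16. That class also held 13 of 34 luminal and 10 of 42 fibroblast marker probe sets, so it does not separate cell types. Between the diets, the medians of the 4 arrays over all probe sets were 0.0092 and 0.0056 on the SPI arrays and -0.0096 and -0.0058 on the CAS arrays.

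Of the 10 genes, Bmpr1b was the 1 with a probe set that passed the threshold between the diets. It was 1.74-fold higher in SPI by that probe set, and the ligand, antagonist and target genes had no probe set past the threshold. Over all 45037 probe sets 1.5% passed (limma, Benjamini-Hochberg adjusted p under 0.05), 112 (0.249%) higher and 564 (1.25%) lower in SPI. With arrays centred on the hybridization controls, bacterial and phage transcripts added before hybridization, that split was 1557 higher and 704 lower, and the median of all differences moved to 0.178 on the log2 scale. Of the 23 member probe sets 1 passed (4.35%), 1 higher and 0 lower. At an unadjusted p under 0.05 there were 3 member probe sets (13%), against 17.8% of all probe sets. In 10 of the 23 (43.5%) the arrays of the diets did not overlap, 5 with SPI higher and 5 with SPI lower, against 48.4% of all probe sets. The median difference of the members was 0.016 on the log2 scale, SPI minus CAS, and that of all probe sets 0.0231. The median size of the difference was 0.0673 for the members and 0.113 for all probe sets. Apart from the single call, the member shares lie near or below those of the whole array.

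**Figure D1:**
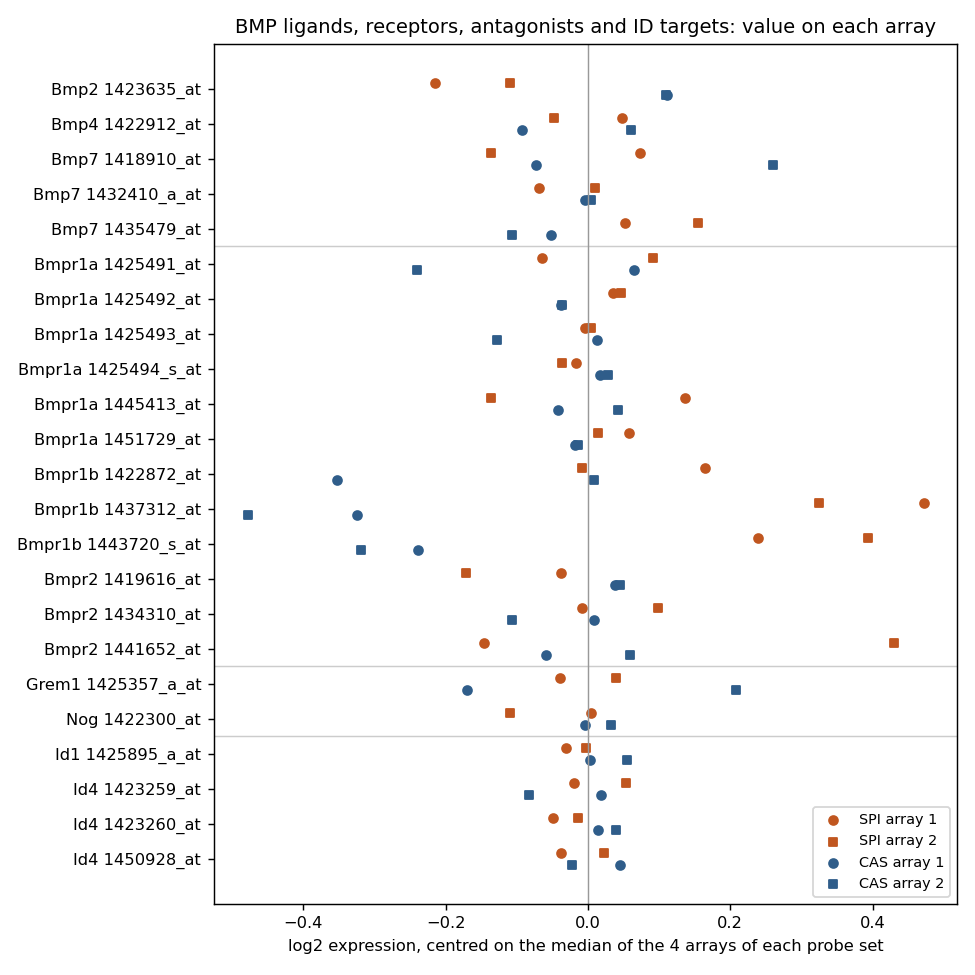
Centred log2 expression (horizontal axis) of the 23 member probe sets on each of the 4 arrays, with SPI arrays in orange above CAS arrays in blue and lines between the ligand, receptor, antagonist and target genes. The Bmpr1b probe sets 1437312_at and 1443720_s_at show both SPI arrays well to the right of both CAS arrays, while most other probe sets show the arrays of both diets close to 0.

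Bmpr1b encodes a type I BMP receptor, also known as ALK6, and was read by 3 probe sets. The probe set 1437312_at, in the level class 4 to 8, was at 0.47 and 0.32 on the SPI arrays, against -0.32 and -0.48 on the CAS arrays. Both SPI arrays were high and both CAS arrays low, and the gap between the diets was wider than the distance between arrays of either diet (0.15 in SPI and 0.15 in CAS). The difference was 0.80 on the log2 scale (95% interval 0.55 to 1.05, 2 arrays in each diet, adjusted p = 0.0364 by limma), or 1.74-fold (1.46 to 2.07).

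The probe set 1443720_s_at, whose suffix marks probes able to pair with transcripts of related genes, was at 0.24 and 0.39 on the SPI arrays, against -0.24 and -0.32 on the CAS arrays. These groups did not overlap either, but the difference of 0.59 (0.36 to 0.82) missed the threshold (limma adjusted p = 0.0597). The third, 1422872_at, was at 0.16 and -0.0089 on the SPI arrays, against -0.35 and 0.0089 on the CAS arrays. Here SPI array 2 lay just below CAS array 2, so the diets overlapped, and the difference of 0.25 (-0.12 to 0.62) did not pass (limma adjusted p = 0.436). Both of these probe sets lay in the level class 2 to 4. With 1 value a gene, the mean of its probe sets, Bmpr1b was at 0.29 and 0.24 on the SPI arrays, against -0.31 and -0.26 on the CAS arrays. That difference was 0.55 (0.38 to 0.71, limma adjusted p = 0.0168 over 18193 genes), and Bmpr1b was the 1 of the 10 genes that passed, where 4% of all genes did.

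The call on 1437312_at was lost without SPI replicate 1, SPI replicate 2, CAS replicate 1 or CAS replicate 2, each of which leaves 1 array for a diet and no probe set passing on the whole array. The difference then lay between 0.72 and 0.88, with limma adjusted p between 0.2525 and 0.3042. With all 4 arrays, the call was also lost under an ordinary t statistic (adjusted p = 0.299) and with the replicate number as a block in limma (adjusted p = 0.0952). For 1422872_at the log2 difference was 0.069 without CAS replicate 1 and 0.43 without CAS replicate 2. When the hybridization controls set the scale, the difference was 0.95 for 1437312_at (limma adjusted p = 0.00439) and 0.75 for 1443720_s_at, which then passed too (limma adjusted p = 0.0153). That scale raised the difference of every probe set alike.

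**Figure D2:**
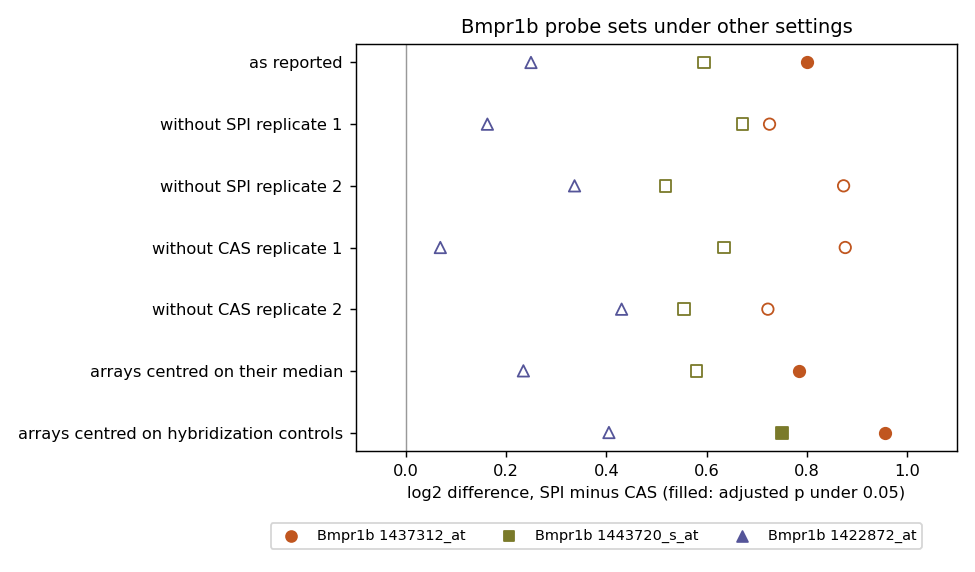
Log2 difference, SPI minus CAS (horizontal axis), of the 3 Bmpr1b probe sets as reported, with each array left out and with other scalings of the arrays; filled points had a limma adjusted p under 0.05. All points lie above 0, those of 1437312_at between 0.72 and 0.95, and leaving out any 1 array leaves no filled point.

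Markers of other cell types moved on the same arrays. Of 42 fibroblast marker probe sets 29 were lower in SPI and 0 higher, and their median was -0.67 and -0.77 on the SPI arrays, against 0.68 and 0.76 on the CAS arrays. Of 34 luminal marker probe sets 14 were lower and 0 higher (median difference -0.656), and of 23 endothelial and pericyte probe sets 7 were lower (-0.473). Of 44 basal and myoepithelial probe sets 4 were higher and 0 lower, those of Vcan, Oxtr and Krt15, with a median difference of 0.154. None of 17 macrophage and leukocyte probe sets passed in limma, and their median difference was 0.255. At an unadjusted p under 0.05 there were 8, 7 higher and 1 lower in SPI, against 17.8% of all probe sets. The part of these shifts in the Bmpr1b difference was not tested. In RNA from a sorted population, fewer cells of a type and less RNA per cell cannot be told apart.

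The sequences just before the start of Bmpr1b are shown because it is the member with a probe set past the threshold. That of Bmpr1a, the other type I receptor, is beside them. Each is the 250 bases before an annotated start, from RefSeq on GRCm38.p6, 5′ to 3′ on the strand of the gene. Bmpr1b had 3 such windows on the minus strand. The 2 at the more downstream starts overlap, and of these the most downstream is given, chr3:141931421-141931670. The window at the most upstream start, chr3:141982265-141982514, is given too. The Bmpr1a window is chr14:34502547-34502796, also on the minus strand. Capitals mark GGCGCC, a GC-rich element known from BMP-responsive genes, and CAGAC or its complement GTCTG, the Smad box. Both strands were searched, and no match of one motif overlapped one of the other here. The motifs were chosen after the values were seen.
Bmpr1b, downstream start: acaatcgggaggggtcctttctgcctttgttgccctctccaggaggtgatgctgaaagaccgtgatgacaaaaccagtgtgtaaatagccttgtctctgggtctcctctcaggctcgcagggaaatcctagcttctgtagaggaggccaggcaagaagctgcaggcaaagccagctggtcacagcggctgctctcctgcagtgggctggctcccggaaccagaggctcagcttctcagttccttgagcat
Bmpr1b, upstream start: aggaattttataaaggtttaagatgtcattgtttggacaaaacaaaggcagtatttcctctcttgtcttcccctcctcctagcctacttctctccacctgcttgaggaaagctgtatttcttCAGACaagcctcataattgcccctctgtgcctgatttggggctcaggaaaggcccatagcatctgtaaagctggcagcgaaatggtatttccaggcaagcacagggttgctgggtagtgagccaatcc
Bmpr1a: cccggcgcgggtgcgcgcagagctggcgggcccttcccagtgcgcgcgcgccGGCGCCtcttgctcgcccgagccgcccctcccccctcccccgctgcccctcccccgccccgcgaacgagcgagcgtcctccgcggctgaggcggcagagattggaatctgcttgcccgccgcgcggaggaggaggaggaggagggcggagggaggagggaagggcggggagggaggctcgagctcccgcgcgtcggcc

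The windows of the 2 receptor genes differ in base composition. The downstream Bmpr1b window held 5 CpG pairs at 56.4% G and C, and the upstream one 1 CpG pair at 46.8%. The Bmpr1a window held 36 CpG pairs at 78.8%, where the median of 32851 promoter windows was 6 pairs and 52.4%. GGCGCC was found once in the Bmpr1a window and in neither printed Bmpr1b window, and 9.59% of all windows hold it. CAGAC or GTCTG was found once in the upstream Bmpr1b window and 0 times in the other windows printed. The third Bmpr1b window, chr3:141931589-141931838, held 1 match too, and 42.2% of all windows hold it. These are matches of letters and not measured sites.

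Bmpr1a, the type I receptor also known as ALK3, was read by 6 probe sets, of which 0 passed. Their differences lay between -0.049 and 0.10 on the log2 scale. For 1425492_at, in the class 8 to 16, the SPI arrays were at 0.036 and 0.047, against -0.039 and -0.036 on the CAS arrays. The diets did not overlap, but the distance between them was small, 0.08 (-0.11 to 0.26, limma adjusted p = 0.630). The widest interval of the gene was that of 1425491_at, at -0.065 and 0.09 on the SPI arrays, against 0.065 and -0.24 on the CAS arrays. There CAS array 2 stood apart from the other 3 arrays, and the difference was 0.10 (-0.23 to 0.43). The remaining probe sets 1425493_at, 1451729_at, 1425494_s_at and 1445413_at were at 0.06, 0.05, -0.05 and -2.4e-07. In each of the 6 the upper end of the interval was at most 0.43, below the lower end of 0.55 for Bmpr1b 1437312_at. That holds for the called Bmpr1b probe set only, since the intervals of 1443720_s_at and 1422872_at began lower, at 0.36 and -0.12. The difference between the 2 receptors was not itself tested.

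Bmpr2, the type II receptor that activates both type I receptors, was read by 3 probe sets that did not share a sign. By 1419616_at it was at -0.04 and -0.17 on the SPI arrays, against 0.04 and 0.05 on the CAS arrays. SPI array 2 was the lowest and the diets did not overlap, but the difference of -0.15 (-0.36 to 0.07) did not pass (limma adjusted p = 0.429). By 1434310_at the SPI arrays were at -0.0085 and 0.098, against 0.0085 and -0.11 on the CAS arrays, a difference of 0.09 (-0.13 to 0.32). By 1441652_at they were at -0.15 and 0.43, against -0.059 and 0.059, a difference of 0.14 (-0.36 to 0.65). In that probe set SPI array 2 stood above the rest, and the distance between the SPI arrays, 0.58, was the largest of any member.

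Among the ligands, Bmp2 had the largest difference. It is a ligand of both type I receptors, known for inducing bone. Its 1 probe set, 1423635_at in the class 8 to 16, was at -0.21 and -0.11 on the SPI arrays, against 0.11 and 0.11 on the CAS arrays. Both SPI arrays lay below both CAS arrays, which were nearly equal. The difference was -0.27 (-0.47 to -0.07) at an unadjusted p of 0.0177, and it did not pass after adjustment (limma adjusted p = 0.188). With arrays centred on the hybridization controls it was -0.12.

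Bmp4, the closest relative of Bmp2, was at 0.05 and -0.05 on the SPI arrays, against -0.09 and 0.06 on the CAS arrays. The diets overlapped fully, and the difference was 0.02 (-0.22 to 0.25, limma adjusted p = 0.956). Bmp7, a ligand known for its part in kidney and eye development, was read by 3 probe sets in the class 4 to 8. By 1435479_at the SPI arrays were at 0.05 and 0.15, against -0.05 and -0.11 on the CAS arrays. The SPI arrays were the higher ones without overlap, but the difference of 0.18 (-0.02 to 0.39) did not pass (limma adjusted p = 0.326). The other Bmp7 probe sets, 1418910_at and 1432410_a_at, were at -0.13 (-0.49 to 0.24) and -0.03 (-0.22 to 0.16), both with overlapping diets.

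The antagonists were read by 1 probe set each, and neither passed. Grem1, which encodes gremlin, a binder of Bmp2 and Bmp4, was at -0.039 and 0.039 on the SPI arrays, against -0.17 and 0.21 on the CAS arrays. The CAS arrays were the lowest and the highest of the 4 and enclosed both SPI arrays. The difference was -0.02 (-0.38 to 0.34, limma adjusted p = 0.970). Nog, which encodes noggin, was in the class 2 to 4, at 0.0041 and -0.11 on the SPI arrays, against -0.0041 and 0.033 on the CAS arrays. SPI array 2 was the lowest, the diets overlapped, and the difference was -0.07 (-0.27 to 0.14, limma adjusted p = 0.723).

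The target genes Id1 and Id4 were read by 4 probe sets in the class 8 to 16, and 0 passed. Id1 was at -0.031 and -0.0033 on the SPI arrays, against 0.0033 and 0.054 on the CAS arrays. The SPI arrays were the lower ones, by less than the distance between the CAS arrays (0.051). The difference was -0.05 (-0.24 to 0.14, limma adjusted p = 0.803). Id4 differed by 0.05 (-0.16 to 0.26), -0.06 (-0.25 to 0.13) and -0.02 (-0.22 to 0.18) in its 3 probe sets, 1423259_at, 1423260_at and 1450928_at. The Id4 values lay between -0.049 and 0.053 on the SPI arrays, against -0.083 and 0.046 on the CAS arrays, ranges that overlap over most of their length.

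On the deposited scale the intervals of most members were narrow for 2 arrays a diet, as were those of most probe sets. These intervals leave out the choice of scaling. On the scale of the hybridization controls every difference was higher, and the member median was 0.171 where it was 0.016 as reported. In 19 of the 23 probe sets (82.6%) the 95% interval lay within a 1.5-fold difference either way, as it did in 86.1% of all probe sets. The other 4 were the 3 of Bmpr1b and 1441652_at of Bmpr2. In the 8 genes other than Bmpr1b and Bmpr2, the interval of every probe set lay within 1.5-fold. A missed threshold does not show that these genes were equal between the diets.

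**Figure D3:**
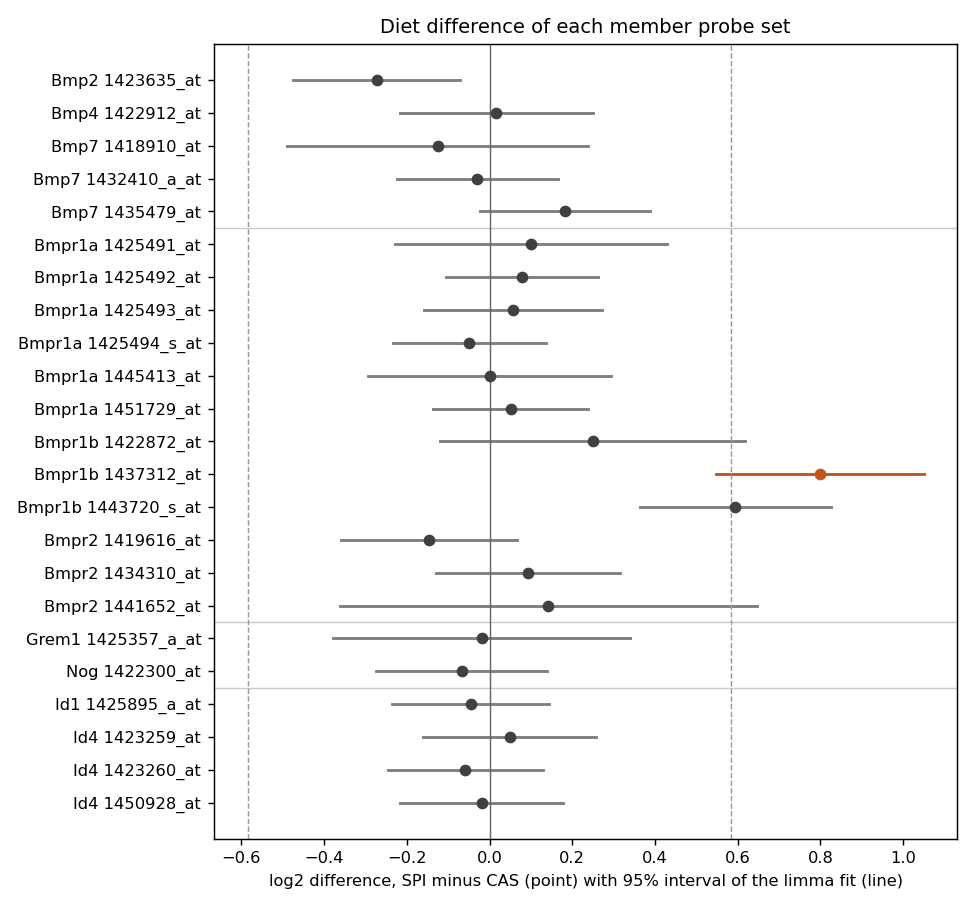
Log2 difference, SPI minus CAS (point), with the 95% interval of the limma fit (line) for the 23 member probe sets, ordered as ligands, receptors, antagonists and targets; dashed lines mark a 1.5-fold difference and orange marks an adjusted p under 0.05. The interval of Bmpr1b 1437312_at, 0.55 to 1.05, reaches beyond the others, and 19 intervals lie between the dashed lines.

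Other genes of the pathway were followed by 5 lists with 58 measured genes and 118 probe sets. Of these genes 3 had a probe set that fell in SPI and 0 had one that rose, a split that depends on the scaling. Of the 118 probe sets 0 were higher and 4 lower as reported, against 6 higher and 5 lower with hybridization controls as the scale. Over all probe sets 112 (0.249%) were higher and 564 (1.25%) lower as reported, against 1557 and 704 with hybridization controls as the scale. The median difference over the 118 probe sets was 0.0153. The 3 were Chrdl1, Bmper and Zeb2. Gata3 stands among both the targets and the luminal markers.

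In the list of extracellular antagonists and modulators, 2 of 17 genes fell. Chrdl1, a chordin-like secreted binder of BMPs, was at -0.45 and -0.54 on the SPI arrays by 1434201_at, against 0.45 and 0.55 on the CAS arrays. The diets were far apart, a log2 difference of -1.0004 (-1.21 to -0.79, limma adjusted p = 0.0166). Its other 3 probe sets, at -0.33, -0.35 and -0.05, did not pass. Bmper, a secreted BMP-binding modulator, was at -0.50 and -0.70 on the SPI arrays, against 0.50 and 0.54 on the CAS arrays. In SPI it was lower by 2.17-fold (1.83 to 2.57), at a limma adjusted p of 0.0175, from a probe set in the lowest level class. A fall on either diet can lower the class. The lowest class also takes every probe set whose digits fit no other, so the level of Bmper is not known from it. The fibroblast markers, with a median difference of -1.41, moved the same way on these arrays, and their part in these falls was not tested.

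Of 11 Smads and intracellular regulators 1 fell, Zeb2, a Smad-binding repressor also known from mesenchymal transition. By 1422748_at it was at -0.64 and -1.12 on the SPI arrays, against 0.64 and 0.69 on the CAS arrays, a 2.92-fold lower value in SPI (interval 2.18 to 3.91) at a limma adjusted p of 0.0271. By 1456389_at the difference was -0.90 (limma adjusted p = 0.0294). Its other 3 probe sets, at -1.08, -0.45 and 0.05, did not pass. The part of the fibroblast marker shift (median difference -1.41) in the fall of Zeb2 was not tested either. The Smad genes themselves, Smad1, Smad4, Smad5, Smad6, Smad7 and Smad9, had no probe set past the threshold. The calls on Chrdl1, Bmper and Zeb2 were each lost when any 1 of the 4 arrays was left out, at adjusted p between 0.122 and 0.3076 in limma.

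None of the 10 other BMP and GDF ligand genes passed in limma. Of 15 probe sets 4 had an unadjusted p under 0.05, against 17.8% of all probe sets. Gdf10, a relative of Bmp3, was at -0.41 and -0.24 on the SPI arrays, against 0.24 and 0.34 on the CAS arrays (difference -0.61, limma adjusted p = 0.0638). Gdf5, a ligand known to prefer Bmpr1b among the type I receptors, was at 0.44 and 0.19 on the SPI arrays, against -0.19 and -0.25 on the CAS arrays. That was a difference of 0.53 (0.25 to 0.81), which did not pass (limma adjusted p = 0.108), from a probe set in the class 2 to 4. On the scale of the hybridization controls, which raised every difference alike, Gdf5 was at 0.69 and passed (limma adjusted p = 0.0186). There 1557 of all 45037 probe sets passed as higher, against 112 as reported.

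None of 11 other receptors and co-receptors passed in limma. Of 29 probe sets 2 had an unadjusted p under 0.05, against 17.8% of all probe sets. The 2 were Tgfbr3 1433795_at, of the co-receptor betaglycan, at 0.39, and Acvrl1 1451604_a_at, of an endothelial type I receptor, at -0.25. Other probe sets of these genes had the opposite sign, Tgfbr3 1425620_at at -0.02 and Acvrl1 1435825_at at 0.08. None of 9 other target genes passed in limma. Of 14 probe sets 6 had an unadjusted p under 0.05, 3 higher and 3 lower, against 17.8% of all probe sets. Id2, of the same family as Id1 and Id4, was at 0.51 by 1453596_at (limma adjusted p = 0.130). Its probe sets 1435176_a_at and 1422537_a_at were at 0.15 and 0.05. Hey1, a transcriptional repressor, was at 0.29 (limma adjusted p = 0.166). On the scale of the hybridization controls Tgfbr3 1433795_at was at 0.54 and passed (limma adjusted p = 0.0427). Id2 1453596_at was at 0.66 there and passed too (limma adjusted p = 0.0363). That scale raised every difference alike, and 1557 of all 45037 probe sets passed as higher, against 112 as reported.

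**Figure D4:**
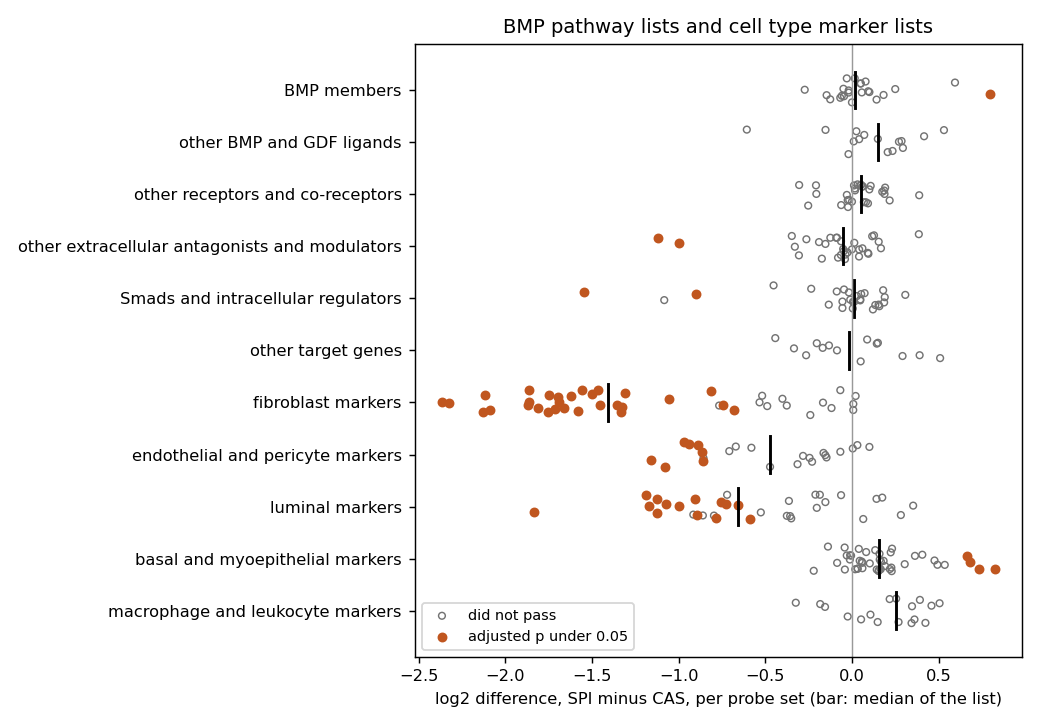
Log2 difference, SPI minus CAS (horizontal axis), of every probe set of the 10 member genes, of 5 lists of other pathway genes and of 5 lists of cell type markers; filled points had a limma adjusted p under 0.05 and bars are list medians. The member median is 0.016, while the fibroblast and luminal marker lists have medians of -1.41 and -0.656.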

How the data were processed

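RNA of 4 samples was measured on Affymetrix arrays. The deposited values are log2 expression values, and the submitters' processing notes list GCOS and RMA without versions. In each probe set the 4 arrays had a median of 0 (within 5e-07), so the authors had centred these log2 values too, which the labels do not mention. After 64 control probe sets were left out, 45037 remained, of which 34945 had exactly 1 gene in the platform annotation, with symbols updated by gene ID. Each probe set was tested for SPI minus CAS with lmFit and eBayes of limma 3.58.1 (R 4.3.3), two-sided and without a block. P-values were adjusted by Benjamini-Hochberg over all 45037 at a threshold of 0.05. An exact permutation test of 2 arrays against 2 cannot go below p = 0.333 and was not used. The fit was tested on simulated data. All probe sets of the members were named. Of each other pathway list, up to 6 genes past the threshold were named, or otherwise the 2 with the smallest p, and up to 2 genes of a marker list, where Krt15 was added after its value was seen. Krt5, Krt14 and Trp63 were looked at as genes of the sorted population, but their level class cannot check it, since markers of other cells share the class. The members and lists were chosen with earlier results of these data known. Alternatives were a replicate block, each array left out, other scalings, 1 value a gene, a level filter, other variance estimates and a threshold of 0.1. The number of arrays limits the precision.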

Additional observations from a re-analysis of the deposited data

How the results depend on the processing

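The counts of member, other pathway and all probe sets past the threshold were 1, 4 and 676. The replicate block gave 0, 0 and 79 (3, 23 and 6300 at an unadjusted p under 0.05), and an ordinary t statistic 0, 0 and 1 (5, 21 and 6084 unadjusted). The replicate numbers are not shown to pair the arrays, since the deviations of same-numbered arrays from their diet means correlated at -0.0989 over probe sets. Arrays centred on hybridization controls gave 2, 11 (6 higher and 5 lower) and 2261, and a threshold of 0.1 gave 2, 7 and 1579. Within the level class 4 or above, 2 of 90 other pathway probe sets passed, and 937 of 30119 in all, 265 higher and 672 lower. The called probe sets of Chrdl1 and Bmper and Zeb2 1456389_at were not in that class, and Gdf10 passed there (limma adjusted p = 0.0412). Leaving out 1 array gave 0 to 0 for each of the 3 counts, with 2 to 3, 13 to 22 and 4882 to 6513 at an unadjusted p under 0.05. Where not stated, the cause was not tested. A probe set has no value of its own with 1 value a gene. With arrays centred on their median or with robust variance estimates, the member and other pathway counts were again 1 and 4.

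Centring on hybridization controls raised the difference of every probe set by the same amount, since SPI minus CAS was -0.155 for these controls. The median of all differences moved from 0.0231 to 0.178, and that of the members from 0.016 to 0.171. With this common shift 10 member differences, none of them called, turned positive. They were Bmp7 1418910_at 0.030 and 1432410_a_at 0.13, Bmpr1a 1425494_s_at 0.11 and 1445413_at 0.16, Bmpr2 1419616_at 0.0093, Grem1 0.14, Nog 0.088, Id1 0.11, and Id4 1423260_at 0.097 and 1450928_at 0.14. Leaving out 1 array turned the sign of uncalled differences too. The ranges were -0.060 to 0.092 for Bmp4, -0.29 to 0.041 for Bmp7 1418910_at, -0.070 to 0.0099 for Bmp7 1432410_a_at, -0.052 to 0.25 for Bmpr1a 1425491_at and -0.013 to 0.13 for Bmpr1a 1425493_at. They were -0.14 to 0.14 for Bmpr1a 1445413_at, -0.15 to 0.43 for Bmpr2 1441652_at, -0.21 to 0.17 for Grem1, -0.0020 to 0.10 for Id4 1423259_at and -0.053 to 0.015 for Id4 1450928_at.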
